A study of Mus musculus with 30 samples.

Results

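Heat shock proteins, chaperones and metallothioneins were followed through early postnatal life in mouse hippocampus, in Nf1 heterozygotes and wild-type mice. Members were all non-control probe sets of the MG-U74Av2 array whose single gene symbol begins with Hsp or Dnaj, is Tcp1 or Cct2 to Cct8, or is Mt1, Mt2, Mt3, Calr, Canx, Pdia3 or Pdia4. This rule found 88 probe sets of 64 genes among the 12488 probe sets of the array. Of these, 73 probe sets of 60 genes had a mean intensity of 31 or more over the 30 arrays and were summarised, and all 73 were among the 7453 probe sets tested. The other 15 probe sets were too dim and received no test. Calr (mean 8.27), Hspb1 (9.68), Dnajb8 (13.2) and Hspa1l (25.4) had no brighter probe set. The members nearest the threshold were Cct6b (31.9) inside it and a further Dnajb3 probe set (30.3) outside it. Hsp90ab1 was not analysed here, because no probe set carried its symbol alone.

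Each of the 30 samples was total RNA of hippocampi pooled from 2 male pups of 1 genotype, from matings of C57BL/6 mice with Nf1 heterozygotes. The Nf1+/- groups held 4 pools at P10 (day 10 after birth), 4 at P15, 2 each at P18, P20 and P28, and 1 at P32. The wild-type groups held 3 pools at P10, 4 at P15 and 2 at each later age. The labels do not name the Nf1 allele, the litters or the processing days, and the p-values measure only the spread between these pools. Whole hippocampus was measured, so fewer cells of a type and less RNA per cell cannot be told apart.

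Chaperones bind unfolded or partly folded proteins and help them reach or keep their native form. HSP70 proteins do this in cycles of ATP hydrolysis that J proteins (Dnaj symbols) start and nucleotide exchange factors end, HSP90 acts on more nearly folded clients, and the ring-shaped chaperonin TRiC, built from Tcp1 and Cct subunits, folds actin and tubulin. Related proteins serve the endoplasmic reticulum and the mitochondrion. Metallothioneins are small cysteine-rich proteins that bind zinc and copper. In brain Mt1 and Mt2 are best known from astrocytes, and Mt3, also called growth inhibitory factor, is the brain-enriched form.

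Promoter sequences are shown for the metallothioneins, whose courses differed, for Hspa1b, which had the largest rise, and for Dnajc3 and Hspa5, which carry a motif rare among promoters. Each is 300 bases, covering 250 before and 50 after a RefSeq transcription start (GRCm38.p6), written 5′ to 3′ on the gene's strand. RefSeq windows were matched for 52 of the 60 genes, and other starts of a gene were not searched. The Mt1 window was set on a start inside the gene's annotated span. Capitals mark metal response element cores (TGCACNC or TGCGCNC) in the metallothioneins, a heat shock element (GAANNTTC or TTCNNGAA) in Hspa1b, and the endoplasmic reticulum stress element (CCAAT, 9 bases, CCACG) in Dnajc3 and Hspa5. All motifs were searched on both strands, and overlapping matches were counted apart.
Mt1 (chr8:94178839-94179138, plus strand): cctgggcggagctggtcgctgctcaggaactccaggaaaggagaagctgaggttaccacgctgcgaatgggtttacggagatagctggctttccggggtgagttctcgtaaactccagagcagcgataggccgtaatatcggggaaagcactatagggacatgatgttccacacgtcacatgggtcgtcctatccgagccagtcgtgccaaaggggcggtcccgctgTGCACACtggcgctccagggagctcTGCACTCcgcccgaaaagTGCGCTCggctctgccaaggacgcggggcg
Mt2 (chr8:94172368-94172667, plus strand): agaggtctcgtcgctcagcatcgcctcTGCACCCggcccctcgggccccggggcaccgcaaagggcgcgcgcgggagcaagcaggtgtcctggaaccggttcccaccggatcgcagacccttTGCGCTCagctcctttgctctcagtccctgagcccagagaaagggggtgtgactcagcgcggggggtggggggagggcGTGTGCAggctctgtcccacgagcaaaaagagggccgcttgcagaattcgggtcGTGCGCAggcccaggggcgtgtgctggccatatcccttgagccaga
Mt3 (chr8:94152357-94152656, plus strand): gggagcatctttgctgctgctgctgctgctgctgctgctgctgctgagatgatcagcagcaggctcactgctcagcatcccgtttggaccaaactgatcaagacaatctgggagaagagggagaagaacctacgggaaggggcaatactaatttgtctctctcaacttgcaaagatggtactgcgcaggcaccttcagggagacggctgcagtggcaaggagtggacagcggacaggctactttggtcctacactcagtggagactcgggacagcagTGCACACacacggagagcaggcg
Hspa1b (chr17:34959189-34959488, minus strand): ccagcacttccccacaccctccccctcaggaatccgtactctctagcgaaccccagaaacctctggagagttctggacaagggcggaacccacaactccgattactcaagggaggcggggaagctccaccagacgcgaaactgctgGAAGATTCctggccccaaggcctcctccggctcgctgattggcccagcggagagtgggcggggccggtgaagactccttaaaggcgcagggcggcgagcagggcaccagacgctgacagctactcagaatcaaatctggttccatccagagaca
Dnajc3 (chr14:118937682-118937981, plus strand): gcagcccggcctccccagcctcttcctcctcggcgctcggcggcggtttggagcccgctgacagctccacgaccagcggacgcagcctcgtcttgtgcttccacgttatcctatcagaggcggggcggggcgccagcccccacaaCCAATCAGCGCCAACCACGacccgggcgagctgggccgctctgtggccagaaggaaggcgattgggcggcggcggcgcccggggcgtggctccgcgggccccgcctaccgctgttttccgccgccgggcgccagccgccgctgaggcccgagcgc
Hspa5 (chr2:34771840-34772139, plus strand): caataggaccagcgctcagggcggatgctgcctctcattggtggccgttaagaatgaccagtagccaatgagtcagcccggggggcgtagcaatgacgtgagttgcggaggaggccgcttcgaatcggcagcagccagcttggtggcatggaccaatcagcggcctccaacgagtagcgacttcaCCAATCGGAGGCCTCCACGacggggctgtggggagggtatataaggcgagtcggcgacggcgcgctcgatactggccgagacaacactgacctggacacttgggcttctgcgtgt

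A metal response core was found in 36.5% of the 52 member windows and in 25.6% of the windows of all 27025 genes. A heat shock element was found in 19.2% of member windows against 15.1% of all windows. The endoplasmic reticulum stress element was found in 4 member windows (7.69%), those of Canx, Dnajc3, Hsp90b1 and Hspa5, against 0.130% of all windows. Mt2 held 4 metal response cores, Mt1 held 3 and Mt3 held 1. The Hspa1a window differed from the Hspa1b window at 4 of 300 positions, and these nearly identical genes may share signal on the array. These matches describe letters in the windows, and their part in the values below was not tested.

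Array medians lay between 49.99 and 59.11 intensity units and differed with age. They were 49.99 to 52.19 in the 7 P28 and P32 arrays and 55.66 to 59.11 in the 7 P10 arrays. The main tests used no further normalization, and quantile normalization was among the alternatives. Nf1 itself was dim, with a median intensity of 5.09 in the 15 Nf1+/- pools and 6.17 in the 15 wild-type pools, and it was not tested. The ratio of 3′ to 5′ Gapdh signal, a sign of RNA integrity, was 1.40 in the Nf1+/- P18 pool titled 1b and between 0.793 and 1.12 in the other 29 pools. The Nf1+/- P18 pools also correlated least within their group (0.944 across probe sets, against 0.952 or more elsewhere). At P20 all Nf1+/- titles carried the number 1 and all wild-type titles the number 2, so that number and genotype cannot be told apart there. At P18 the titles were 1a and 1b in Nf1+/- and 1c and 1d in wild type, so letter and genotype cannot be told apart.

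The members spanned a wide range of intensity, and intensities of different probe sets are not comparable as amounts of mRNA. Of the 60 genes, 10 had a mean intensity above 1000, 34 lay between 100 and 1000, and 16 lay below 100. Those above 1000 were Hsp90aa1 (3512), Mt3 (2648), Mt2 (2202), Hspa8 (2171), Mt1 (1984), Dnaja1 (1980), Hspd1 (1549), Dnajb6 (1388), Hspa4 (1304) and Hsph1 (1107).

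The first comparison asked how these genes changed as the hippocampus matured, from the mean of P28 and P32 minus P10, averaged over the genotypes. More members rose than fell. With limma's moderated test and Benjamini-Hochberg adjustment over all tested probe sets, 30 of 73 member probe sets were called higher (adjusted p below 0.05), against 24.7% of all tested, and 8 were called lower, against 29.0% of all tested. By gene, 27 of 60 rose and 7 fell. The median member change was 0.16 on the log2 scale, and that of all tested probe sets was -0.06. In all, 38 members were called against 53.7% of the table, so change with age was no more frequent among them. In 14 member probe sets every P28 and P32 pool lay above every P10 pool, which held for 13.6% of all tested, and in 3 every such pool lay below, against 13.3%.

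**Figure D1:**
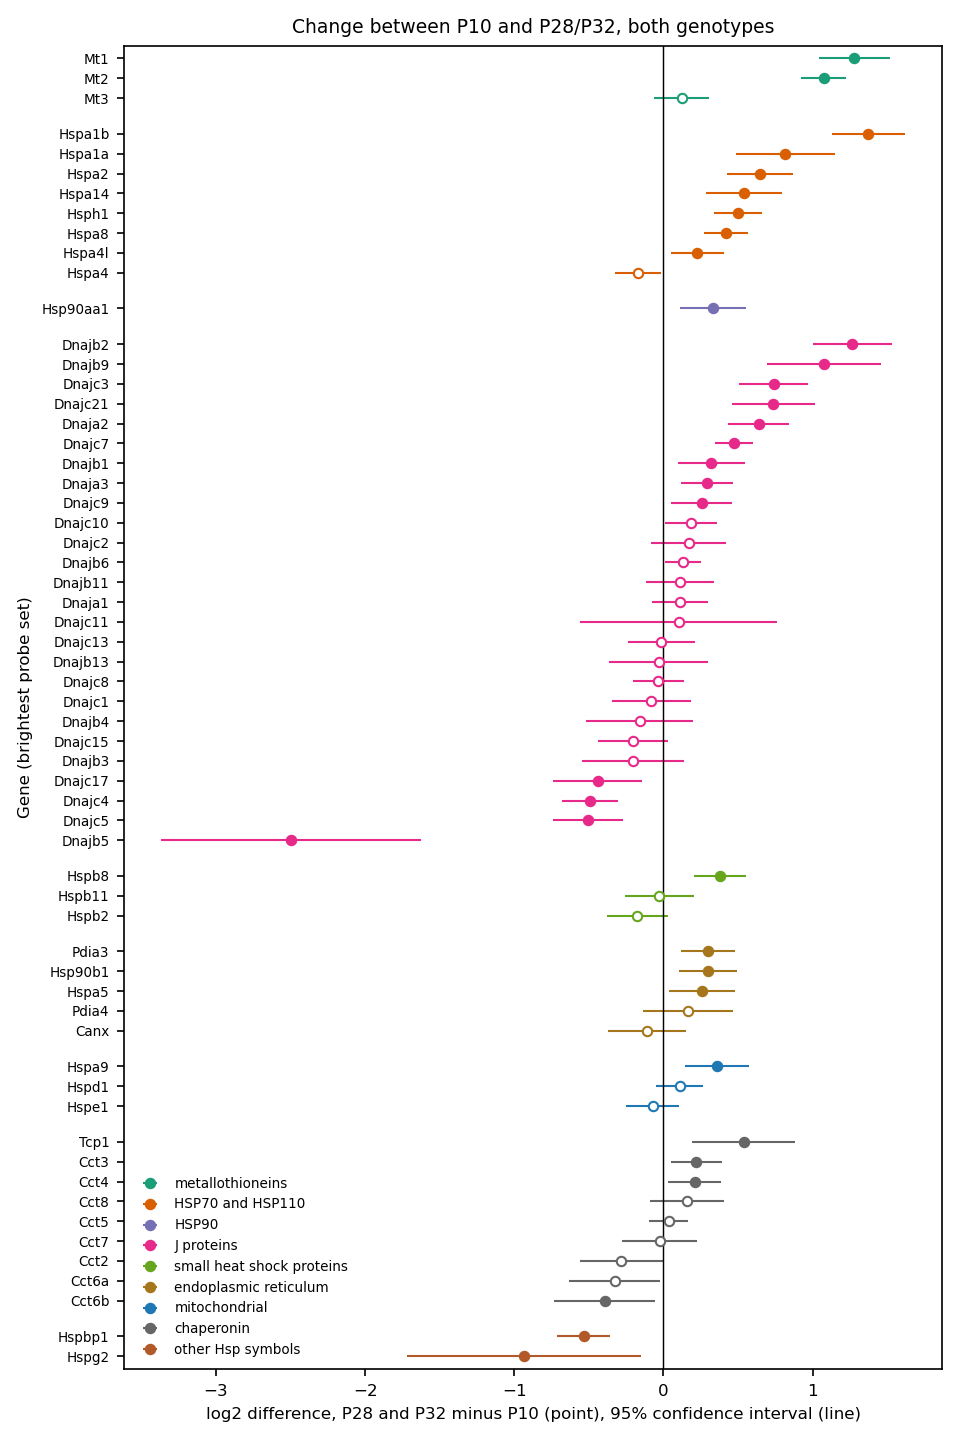
Change between P10 and P28/P32 for the 60 genes, each by its brightest probe set, as log2 difference (point) with its 95% confidence interval (line). Filled points passed the test and open points did not, and colours give the role groups. All HSP70 and HSP110 genes but Hspa4 lie right of 0, and Dnajb5 lies farthest left at -2.50, a size that rests on dim P28 and P32 values.

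Mt1 and Mt2, which bind zinc and copper, rose between P10 and P28/P32, and Mt3 followed another course. Mt1 (chromosome 8, 94178883 to 94180327, GRCm38.p6) measured 1771 to 2442 with a median of 2094 in the 7 P28 and P32 pools, against 767 to 961 with a median of 885 in the 7 P10 pools. Mt2, its neighbour (94172618 to 94173567), measured 2261 to 3116 with a median of 2521 in the P28 and P32 pools, against 1168 to 1367 with a median of 1281 in the P10 pools. The groups did not overlap for either gene. The log2 change was 1.28 ± 0.12 (SE) for Mt1 (2.43-fold, adjusted p = 2.56e-09) and 1.07 ± 0.07 for Mt2 (2.10-fold, adjusted p = 3.15e-11). Mt3 (94152607 to 94154148) measured 1808 to 2445 with a median of 2137 in the P28 and P32 pools, against 1746 to 2182 with a median of 1991 in the P10 pools. These ranges overlapped, and its change of 0.12 (95% confidence interval -0.06 to 0.31) was not called.

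Between those ages Mt3 rose and returned. Its age test was passed (limma F test, adjusted p = 2.09e-07), as were those of Mt1 and Mt2. From P10 to P15 it rose by 0.74 ± 0.08 (adjusted p = 5.04e-07). At P15 it measured 3351, 3896, 3261 and 3619 in Nf1+/- pools and 2514, 2684, 3635 and 3694 in wild-type pools, all above every P10 pool. At P18 it measured 3664 and 2876 in Nf1+/- and 3708 and 3718 in wild type, and at P20 it measured 2727 and 2782 in Nf1+/- and 2165 and 2609 in wild type. Neither the change from P18 to P20 (-0.44, adjusted p = 0.325) nor that from P20 to P28 (-0.31, adjusted p = 0.0983) was called alone. By P28 it measured 1939 and 2279 in Nf1+/- and 2137 and 1934 in wild type, near the P10 values.

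**Figure D2:**
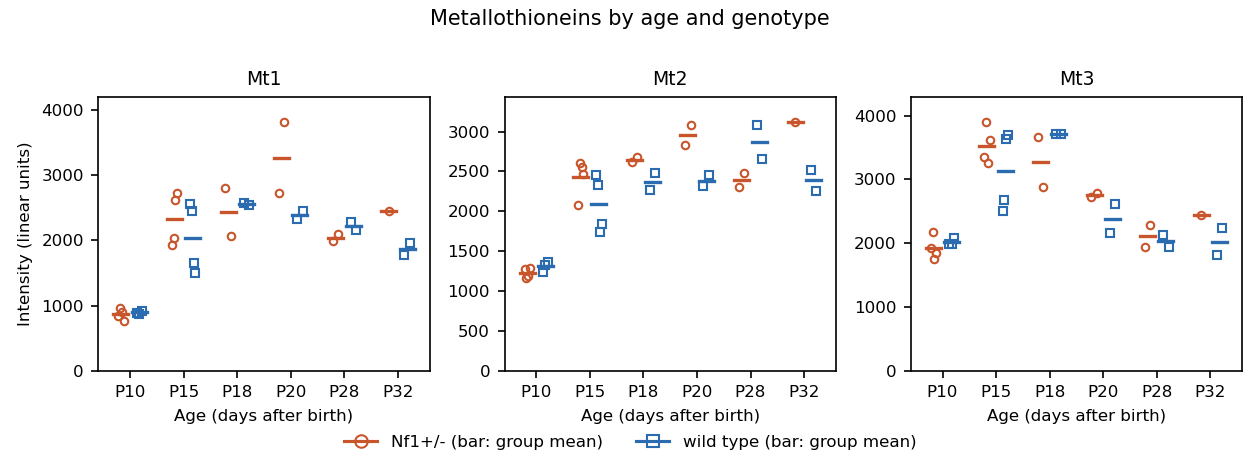
Intensity of Mt1, Mt2 and Mt3 (y axes, linear units from 0) at each age, with Nf1+/- pools as circles, wild-type pools as squares and bars at the group means. Mt1 and Mt2 were higher at P15 and stayed above their P10 values, while Mt3 was highest at P15 and P18 and near its P10 values at P28 and P32.

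All HSP70 and HSP110 genes except Hspa4 rose with age (7 of 8). Hspa1b (chromosome 17, 34956429 to 34959238), the stress-inducible cytosolic HSP70, measured 101 to 140 with a median of 106 in the P28 and P32 pools, against 38.7 to 47.2 with a median of 43.9 in the P10 pools. The groups stood far apart, and the rise was 1.37 ± 0.12 (2.59-fold, adjusted p = 1.37e-09). Its near-copy Hspa1a measured 136 to 233 in the P28 and P32 pools and 90.3 to 146 in the P10 pools, with an overlap, and rose by 0.82 ± 0.16 (adjusted p = 0.000161). Hspa2, an HSP70 best known from testis, measured 191 to 249 in the P28 and P32 pools against 110 to 153 in the P10 pools, without overlap, and rose by 0.65 ± 0.11 (adjusted p = 1.94e-05).

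The other members of the family except Hspa4 rose by smaller amounts. Hspa8 (chromosome 9, 40801276 to 40805202), the constitutive cytosolic HSP70, measured 2201 to 2923 with a median of 2420 in the P28 and P32 pools, against 1560 to 2107 with a median of 1905 in the P10 pools. It rose by 0.42 ± 0.07 without overlap (1.34-fold, adjusted p = 3.39e-05). Hsph1, an HSP110 that exchanges nucleotide on HSP70, measured 1104 to 1580 in the P28 and P32 pools against 898 to 1018 in the P10 pools, also without overlap. It rose by 0.50 ± 0.08 (adjusted p = 1.01e-05). Hspa14, an HSP70 that works at the ribosome, rose by 0.54 ± 0.12 (adjusted p = 0.000756) and Hspa4l, an HSP110 relative, by 0.23 (adjusted p = 0.0296). Hspa4, another HSP110 relative, changed by -0.17 in its brightest probe set (adjusted p = 0.055), and its other 3 probe sets gave values from 0.02 to 0.18, none of them called.

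Hsp90aa1, an inducible cytosolic HSP90 and the brightest member, measured 3678 to 4237 in the P28 and P32 pools, against 2729 to 3664 in the P10 pools. The ranges met without overlapping, and the rise was 0.33 ± 0.11 (1.26-fold, adjusted p = 0.0111). Among nucleotide exchange factors outside the HSP110 family, Hspbp1 fell, with 247 to 308 in the P28 and P32 pools against 358 to 412 in the P10 pools. Its change was -0.53 ± 0.09, without overlap (adjusted p = 1.49e-05).

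J proteins were divided, with 9 of 26 genes called higher, 4 called lower and 13 not called, and a median change of 0.11. Dnajb2, a neuronal J protein that binds ubiquitin, measured 207 to 339 with a median of 303 in the P28 and P32 pools, against 97.2 to 149 with a median of 115 in the P10 pools. It rose by 1.26 ± 0.13 without overlap (2.40-fold, adjusted p = 1.80e-08). Dnajb9 and Dnajc3, J proteins of the endoplasmic reticulum that serve the HSP70 Hspa5, rose in both of their probe sets. The brighter Dnajb9 probe set measured 287 to 527 in the P28 and P32 pools against 137 to 205 in the P10 pools, and rose by 1.08 ± 0.18 (adjusted p = 3.03e-05). The dimmer one rose by 1.22 ± 0.13. The brighter Dnajc3 probe set measured 144 to 201 in the P28 and P32 pools against 87.0 to 115 in the P10 pools, and rose by 0.74 ± 0.11 (adjusted p = 5.69e-06). Dnajc21, a ribosome biogenesis factor, rose by 0.73, and Dnaja2, a cytosolic partner of Hspa8, by 0.64. Dnajc7, which binds both HSP70 and HSP90, rose by 0.47, Dnajb1, the main stress-inducible cytosolic J protein, by 0.32, mitochondrial Dnaja3 by 0.29 and histone-binding Dnajc9 by 0.26.

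**Figure D3:**
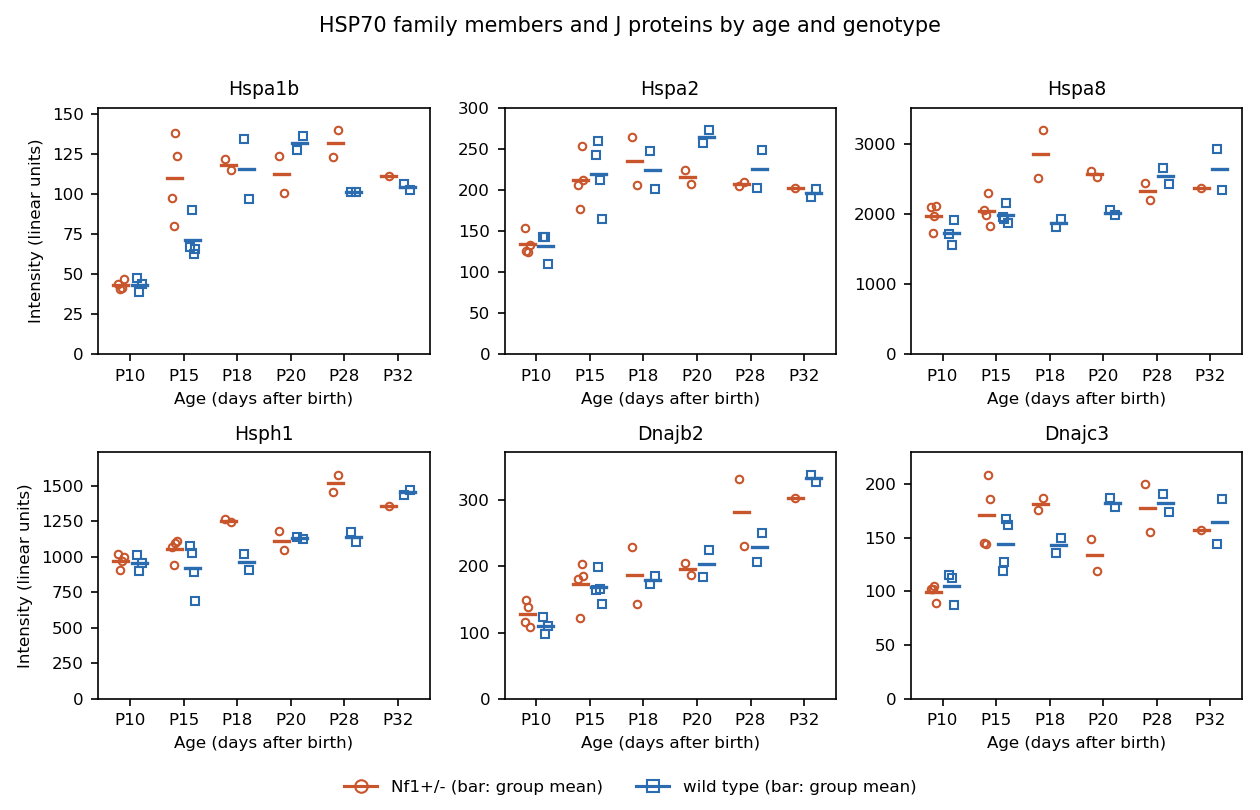
Intensity of 4 HSP70 and HSP110 genes and 2 J proteins (y axes, linear units from 0) at each age, with Nf1+/- pools as circles, wild-type pools as squares and bars at the group means. Hspa1b, Hspa2, Dnajc3 and Dnajb2 were already higher at P15, and Dnajb2 had its highest group means at P28 and P32.

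Dnajb5 fell into the range of dim signals. Dnajb5 (chromosome 4, 42949867 to 42959425) measured 7.26 to 39.1 with a median of 11.3 in the P28 and P32 pools, against 58.8 to 95.6 with a median of 78.4 in the P10 pools. The groups did not overlap, and the fitted change was -2.50 ± 0.42 (adjusted p = 2.54e-05). It reached the mean intensity of 31 through its earlier pools, and most later values lay below that level. Its fall, also among the members counted as lower above, is therefore only described, and its size is uncertain. Dnajc5, the cysteine string protein of synaptic vesicles, measured 118 to 149 in the P28 and P32 pools against 138 to 212 in the P10 pools, and fell by 0.51 (adjusted p = 0.000578). Only the lowest P10 pool overlapped with the later ones. Dnajc4 fell by 0.49, without overlap, and Dnajc17, a nuclear J protein tied to splicing, fell by 0.44.

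Of the 5 endoplasmic reticulum genes that are not J proteins, 3 were called higher. Pdia3, a disulfide isomerase that acts with calnexin, measured 286 to 463 in the P28 and P32 pools against 269 to 366 in the P10 pools, and rose by 0.30 ± 0.09 (adjusted p = 0.00592). Hsp90b1, the HSP90 of this compartment, measured 780 to 1187 in the P28 and P32 pools against 635 to 816 in the P10 pools, and rose by 0.30 (adjusted p = 0.00947). Hspa5 measured 711 to 1465 in the P28 and P32 pools against 701 to 925 in the P10 pools, with broad overlap. It rose by 0.26 ± 0.11 (adjusted p = 0.0459), and this call was lost when any of 19 single pools was left out (adjusted p up to 0.109). Canx, the membrane lectin calnexin, changed by -0.11 (95% confidence interval -0.37 to 0.15) and Pdia4 by 0.16, neither called. Of the genes whose windows held the stress element, Dnajc3, Hsp90b1 and Hspa5 were called higher and Canx was not. Among genes of this compartment without it, Dnajb9 and Pdia3 were also called higher and Pdia4 was not. A link between the element and these changes was not tested.

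In the mitochondrion Hspa9, the HSP70 of the matrix, measured 452 to 637 in the P28 and P32 pools against 376 to 462 in the P10 pools and rose by 0.36 ± 0.10 (adjusted p = 0.00526). Hspd1, the mitochondrial chaperonin, changed by 0.11 in its bright probe set and was not called, but was called without the wild-type P28 pool 1a (0.18, adjusted p = 0.0202). A dim second Hspd1 probe set (9.17 to 56.0 in the P28 and P32 pools, 13.5 to 48.1 in the P10 pools) was called lower (adjusted p = 0.0146). These ranges overlapped, and both extended below the mean intensity of 31 at which members were kept. This fall, although counted among the members called lower, is therefore only described, and its size is uncertain. Hspe1, its co-chaperonin, changed by -0.07 and was not called. Among small heat shock proteins, Hspb8 rose by 0.38 ± 0.08 without overlap (141 to 191 in the P28 and P32 pools, 103 to 137 in the P10 pools). Hspb2 and Hspb11 were not called.

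The TRiC subunits moved in different directions by small amounts, with 3 of 9 genes called higher, 1 called lower and a median of 0.03. Tcp1 measured 98.7 to 139 in the P28 and P32 pools against 42.7 to 125 in the P10 pools, and rose by 0.54 ± 0.17 (adjusted p = 0.00947). Cct3 rose by 0.22 and Cct4 by 0.21, and Cct6b, an isoform known from testis, fell by 0.40. The mean intensity of Cct6b was 31.9 over all pools, 36.5 in the P10 pools and 27.3 in the P28 and P32 pools. It thus reached the required mean intensity of 31 through its earlier pools. The fall of Cct6b, although counted as a call, is therefore only described. The Cct3 call was lost without the Nf1+/- P10 pool 1a, the wild-type P10 pools 2a or 2b, or the wild-type P28 pool 1a (adjusted p up to 0.0833). Those of Cct4 and Cct6b were lost without any of 9 and 10 pools (adjusted p up to 0.0994 and 0.0964), and 2 further Cct3 probe sets gave -0.17 and -0.05. Hspg2, which enters by its symbol but encodes perlecan, a basement membrane proteoglycan, fell by 0.94 (adjusted p = 0.0416). That call was lost without any of 8 pools (adjusted p up to 0.111).

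Probe sets of the same gene did not always move together. Of 13 further probe sets of the 10 genes with more than 1, 5 had the sign of the brightest one, and 2, those of Dnajb9 and Dnajc3, were called with it.

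Other genes of these pathways, from lists, moved in both directions. Among 16 tested co-chaperones and cytosolic regulators, 5 rose, 4 fell and 7 were not called, with a median of 0.03. Cryab, a small heat shock protein of glia, rose by 0.82, Fkbp5, an HSP90 co-chaperone of steroid receptors, by 0.47, and Ppid and Chordc1, further HSP90 partners, each by 0.39. Bag6 fell by 0.71 and Sgta, its partner in handling membrane proteins, by 0.47. Among 19 tested genes of endoplasmic reticulum stress and folding, 5 rose, 5 fell and 9 were not called. Atf6, a sensor of unfolded proteins, rose by 1.62, Herpud1 by 0.53 and Xbp1, the transcription factor spliced in this response, by 0.44, while the collagen chaperone Serpinh1 fell by 1.46 and the translocon subunit Sec61b by 1.02. Among 11 metal handling genes, 3 rose and 4 fell. Mtf1, the zinc-sensing factor that activates metallothionein genes, rose by 0.58 and the ferritin subunit Fth1 by 0.58, while Atox1, a copper chaperone, fell by 1.15. Of 11 tested prefoldin and mitochondrial folding genes, 3 rose and 2 fell, with Pfdn2 at 0.66.

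Cell type markers moved over the same span. Summed intensity of 7 astrocyte markers was 7701 to 9015 in the P28 and P32 pools against 5035 to 5544 in the P10 pools, and 5 of them were called higher and 1 lower. That of 6 oligodendrocyte markers was 7411 to 9166 in the P28 and P32 pools against 641 to 1029 in the P10 pools, all 6 called higher. All 6 markers of immature neurons were called lower, at 5390 to 7072 in the P28 and P32 pools against 10024 to 11835 in the P10 pools. Choroid plexus markers ranged widely in both groups, at 374 to 4882 in the P28 and P32 pools and 88.2 to 2442 in the P10 pools. No list had a marker below the filter on dim probe sets, and the part of cell makeup in the member changes was not tested.

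Maturation was also estimated within each genotype. In Nf1+/- pools 21 members were called, against 36.5% of all tested, and in wild-type pools 28 were called, against 38.2%. Hspa1b rose by 1.49 in Nf1+/- and by 1.25 in wild type. Mt1 rose by 1.37 in Nf1+/- and by 1.19 in wild type. The difference in maturation itself was called for no member and for 0% of all tested by limma, with 10 members and 508 of all tested at an unadjusted p below 0.05. The smallest p belonged to Hspa5, whose change was -0.10 ± 0.15 in Nf1+/- and 0.62 ± 0.15 in wild type, a difference of -0.72 with a 95% confidence interval of -1.17 to -0.28 (adjusted p = 0.48). Pdia3 followed with 0.06 in Nf1+/- and 0.54 in wild type (difference -0.48, adjusted p = 0.658). At P32 the single Nf1+/- pool held 711 for Hspa5 against 1465 and 1208 in wild type, and 286 for Pdia3 against 463 and 457.

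Of the 5 steps between neighbouring ages, that from P10 to P15 had the most calls. In it 14 members were called higher and 4 lower, against 12.5% and 13.4% of all tested, and by gene 13 of 60 rose and 3 fell. Mt1 rose by 1.28 ± 0.11 (adjusted p = 4.48e-09), and Mt2 by 0.82 ± 0.07 (adjusted p = 5.06e-09). Mt1 measured 1919, 2030, 2610 and 2718 in Nf1+/- P15 pools and 2553, 2446, 1648 and 1492 in wild-type P15 pools. Every P15 pool lay above every P10 pool for all 3 metallothioneins, a pattern whose share over all tested probe sets is not given here.

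Hspa1b rose by 1.02 ± 0.11 in this step (adjusted p = 3.73e-07). It measured 97.3, 80.3, 138 and 124 in Nf1+/- P15 pools and 66.7, 90.3, 62.4 and 65.9 in wild-type P15 pools. Hspa2 rose by 0.69, Dnajc3 by 0.61, Dnajb2 by 0.52, Hspb8 by 0.35 and Hspa5 by 0.30, and Dnajb9 by 0.59 and 0.66 in its 2 probe sets. Dnajc5, later among those that fell, rose by 0.32 (adjusted p = 0.0301), and Dnajc13, an endosomal J protein, fell by 0.41. The summed oligodendrocyte markers (3212 to 9102 at P15, 641 to 1029 at P10) and the immediate early genes Egr1 (1.01), Fos (0.94) and Nr4a1 (0.88) changed in the same step. In the endoplasmic reticulum list 6 of 19 genes rose and none fell, with Atf6 at 0.60 and Xbp1 at 0.45, and in the metal handling list 2 of 11 rose, with Fth1 at 0.26.

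Later steps added few calls. From P15 to P18 the dimmer Dnajb9 probe set rose by 0.58 (adjusted p = 0.0295), 1 member against 1.95% of all tested, and Dnajc5 fell by 0.54 (adjusted p = 0.0258), 1 member against 1.89%. Both calls were lost without the Nf1+/- P15 pool 1d, the Nf1+/- P18 pool 1b or either wild-type P18 pool, and the Dnajb9 call also without the wild-type P15 pool 2d. The adjusted p then ranged up to 0.114 for Dnajb9 and 0.175 for Dnajc5. This step called 11 members without the Nf1+/- P18 pool 1a and 4 without the Nf1+/- P15 pool 2c. For the refits of this and the later steps, the share of all tested probe sets called is not given here. Their counts do not set members apart from the table. From P20 to P28 Dnaja2 rose by 0.43 (adjusted p = 0.0394), 1 member against 3.06% called higher. It measured 325 and 320 in Nf1+/- and 327 and 384 in wild type at P28, against 245 and 251 in Nf1+/- and 251 and 255 in wild type at P20, and the call was lost without any of 7 of these 8 pools (adjusted p up to 0.146). Without either Nf1+/- P18 pool this step called 6 members, and without the wild-type P28 pool 1a it called 2. No member was called from P18 to P20 or from P28 to P32, each against 0.0134% of all tested, with 5 and 1 members at an unadjusted p below 0.05. Without the Nf1+/- P18 pool 1a, 1 member was called from P18 to P20. For the unadjusted p below 0.05 in these steps, the share of all tested probe sets is not given here. Over the 6 ages the F test called 36 members, against 54.2% of all tested.

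The second comparison asked whether Nf1 heterozygosity altered these genes. Over all ages no member was called by limma, and neither was any tested probe set (0%), with 10 members and 698 of all tested at an unadjusted p below 0.05. The smallest p belonged to Hspa14 (-0.24, 95% confidence interval -0.40 to -0.08, adjusted p = 0.342), Hsph1 (0.16, 0.04 to 0.28, adjusted p = 0.425), Dnajb13 (-0.29, adjusted p = 0.426) and Hspa8 (0.15, adjusted p = 0.446). Intervals of the metallothioneins ran from -0.05 to 0.28 for Mt1, from -0.02 to 0.23 for Mt2 and from -0.06 to 0.20 for Mt3.

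At P10 no member was called against 0.0403% of all tested, at P15 none against 0%, at P28 none against 0.0134%, and at P32, with a single Nf1+/- pool, none against 0.0537%. Members at an unadjusted p below 0.05 numbered 1, 5, 3 and 8 at these ages. Without the Nf1+/- P15 pool 2c, 1 member was called at P32. The matching shares of all tested probe sets, at that unadjusted p and in that refit, are not given here. These counts thus do not set members apart from the table. At P15 the Nf1+/- minus wild-type difference was 0.61 ± 0.15 for Hspa1b (adjusted p = 0.358) and -0.50 ± 0.14 for Hspb11 (adjusted p = 0.591), neither called. Every Nf1+/- P15 pool of Hspb11 (61.3, 49.7, 71.7 and 63.8) lay below every wild-type P15 pool (83.6, 88.9, 85.5 and 87.7). The share of all tested probe sets with such a separation is not given here.

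**Figure D4:**
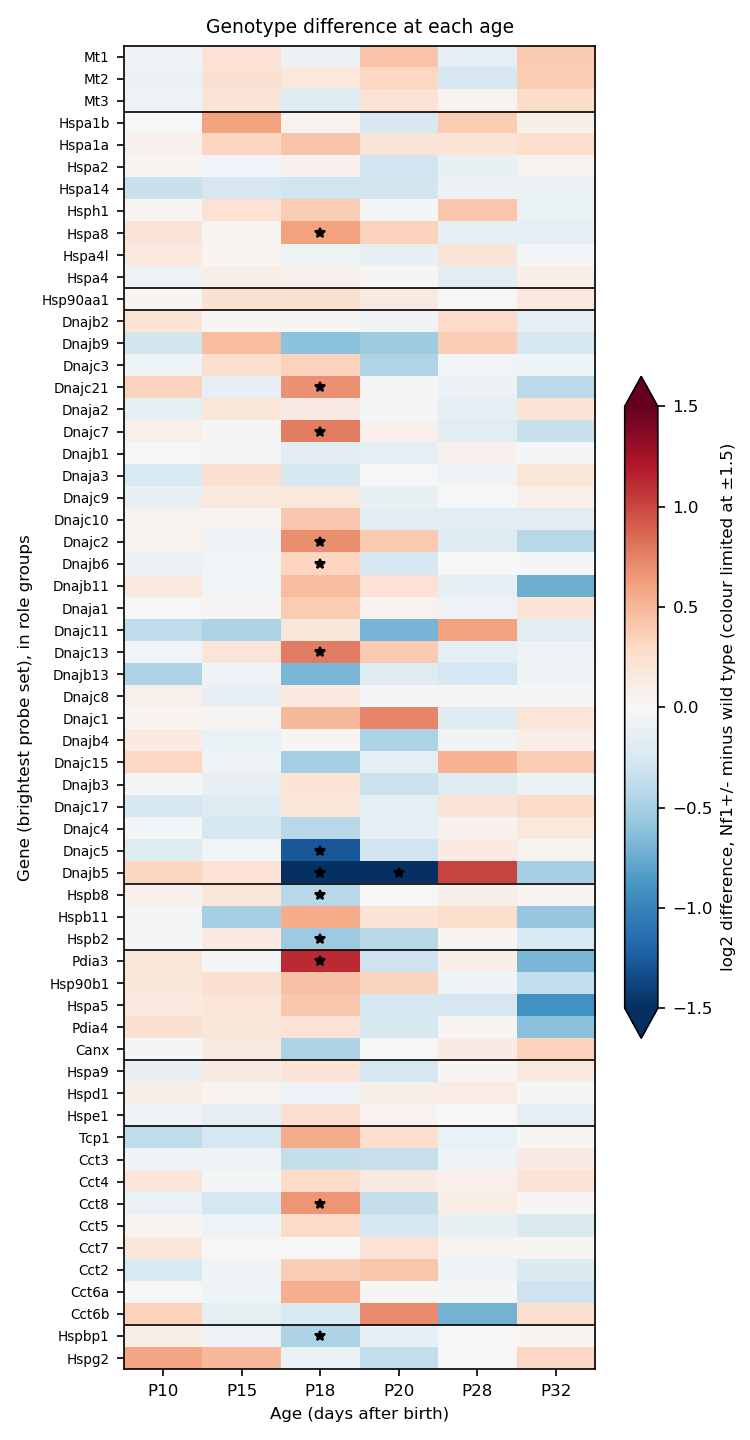
Genotype difference at each age (x axis) for the 60 genes by their brightest probe set (y axis, in role groups parted by lines), as log2 Nf1+/- minus wild type, with colour limited at ±1.5. Stars mark calls, which lie at P18 and, for Dnajb5, at P20.

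At P18 11 members were called higher in Nf1+/-, against 11.0% of all tested, and 6 lower, against 11.8%, so members were called about as often as the whole table. Pdia3 (chromosome 2, 121413902 to 121438687) measured 477 and 638 in Nf1+/- pools and 240 and 267 in wild-type pools. It was higher by 1.12 ± 0.16 (2.18-fold, adjusted p = 0.000255). Dnajc7 (chromosome 11, 100582818 to 100620292) measured 666 and 727 in Nf1+/- pools and 412 and 407 in wild-type pools, and was higher by 0.76 ± 0.11 (adjusted p = 0.000315). Dnajc5 (chromosome 2, 181518858 to 181552886) measured 129 and 83.2 in Nf1+/- pools and 260 and 242 in wild-type pools, and was lower, at -1.28 ± 0.21 (adjusted p = 0.000384). For these 3 genes the 2 groups did not overlap, and the call held without any single pool.

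Hspa8 measured 2518 and 3194 in Nf1+/- pools and 1808 and 1921 in wild-type pools, higher by 0.61 ± 0.13 (adjusted p = 0.0031). Dnajc2, a J protein of the ribosome, measured 147 and 269 in Nf1+/- pools and 117 and 106 in wild-type pools in the probe set with the smaller p, higher by 0.84 ± 0.19 (adjusted p = 0.00474). Both calls were lost without the Nf1+/- pool 1b, with adjusted p of 0.0976 for Hspa8 and 0.224 for Dnajc2, whose difference then was 0.40. The Dnajc2 call was also lost without the wild-type pool 1d (adjusted p = 0.0534). Other members called higher were a dimmer Hspa4 probe set (0.98), endosomal Dnajc13 (0.78), a dimmer Cct5 probe set (0.76), the brighter Dnajc2 probe set (0.70), Dnajc21 (0.69), Cct8 (0.66) and Dnajb6 (0.32). Members called lower were Dnajb5 (-2.36, with 1 Nf1+/- pool at 7.12), a dimmer Cct3 probe set (-0.84), Hspb2 (-0.54), Hspbp1 (-0.46) and Hspb8 (-0.42). Pool 1b measured 5339 for Hsp90aa1 and 2819 for Dnaja1, the highest of the 30 pools for both, whereas pool 1a measured 2773 and 1567, among the lowest.

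The count at P18 rested on single pools. It was 3 without the Nf1+/- pool 1b, 29 without the Nf1+/- pool 1a, and 6 and 5 without the wild-type pools 1c and 1d. The share of all tested probe sets called in these refits is not given here, so the counts do not set members apart from the table. The Gapdh 3′ to 5′ ratio was 0.966 and 1.40 in the Nf1+/- P18 pools and 0.836 and 0.855 in the wild-type P18 pools. With that ratio as a covariate, Dnajc5 (-0.97, adjusted p = 0.0644), Hspa8 (0.34, adjusted p = 0.263) and Dnajc2 (0.37, adjusted p = 0.404) were no longer called, and Pdia3 and Dnajc7 still were. Summed astrocyte markers were 6884 to 8997 in the Nf1+/- pools and 5981 to 6383 in the wild-type pools, and those of microglia were 1794 to 2133 in Nf1+/- and 2382 to 2413 in wild type. In the endoplasmic reticulum list 2 of 19 genes were higher and 6 lower at this age, with Eif2ak3, a kinase that senses unfolded proteins, at 1.08 and Serpinh1 at -1.85. The part of cell makeup in these differences was not tested.

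At P20 no member was called higher, and 2 probe sets were called lower in Nf1+/-, against 1.37% of all tested. Dnajb5 measured 12.2 and 12.9 in Nf1+/- pools and 118 and 126 in wild-type pools, a fitted log2 difference of -3.28 ± 0.77 (adjusted p = 0.0238). The Nf1+/- values lay below the intensity of 31 at which members were kept, so the size of this difference is uncertain. The probe set reached that mean through the groups where it was high, so the difference is only described. The dimmer Dnajb9 probe set measured 73.96 and 62.7 in Nf1+/- pools and 136 and 130 in wild-type pools, a difference of -0.97 ± 0.23 (adjusted p = 0.0307). The groups did not overlap for either, but both calls were lost without any of the 4 pools (adjusted p up to 0.182 and 0.214). The Gapdh ratio was 1.002 to 1.12 in Nf1+/- and 0.793 to 0.812 in wild type at P20. With that ratio as a covariate the differences were -1.03 for Dnajb5 (adjusted p = 0.513) and -0.50 for Dnajb9 (adjusted p = 0.387).

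The interaction of genotype and age, an F test of whether the age profiles differed, called 6 members, against 6.49% of all tested. These were Pdia3 (adjusted p = 0.0025), Dnajc7 (0.00693), Dnajc5 (0.0249), the dimmer Dnajb9 probe set (0.0403), Dnajb5 (0.0404) and Hspb11 (0.0407). Pdia3 was higher in Nf1+/- at P18 and was measured at 379 and 279 in Nf1+/- and 404 and 400 in wild type at P20. Dnajc7 in Nf1+/- was 666 and 727 at P18 and 707 and 614 at P20, whereas in wild type it was 412 and 407 at P18 and 602 and 650 at P20. Its P18 and P20 values thus overlapped in Nf1+/- and stood apart in wild type.

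Dnajb5 moved between a high and a low range in both genotypes, at different ages. In Nf1+/- pools it measured 96.7 and 7.12 at P18, 12.2 and 12.9 at P20, 8.51 and 39.1 at P28 and 11.6 at P32. In wild-type pools it measured 144 and 126 at P18, 118 and 126 at P20, 11.3 and 7.26 at P28 and 8.22 and 32.9 at P32. All P10 and P15 pools of both genotypes lay at 58.8 or above. The 2 Nf1+/- P18 pools thus lay in different ranges, and the pool with the high Gapdh ratio was the low one. Hspb11, a component of intraflagellar transport despite its symbol, measured 80.1 and 124 in Nf1+/- and 71.4 and 64.5 in wild type at P18, the reverse of its order at P15. The refit counts that follow stand without the matching share of all tested probe sets. They do not set members apart from the table. The interaction count was 3 without the Nf1+/- P18 pool 1b, 18 without pool 1a and 2 without either wild-type P18 pool, and 3 without the wild-type P15 pool 1b or any of the wild-type P20 and P28 pools.

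**Figure D5:**
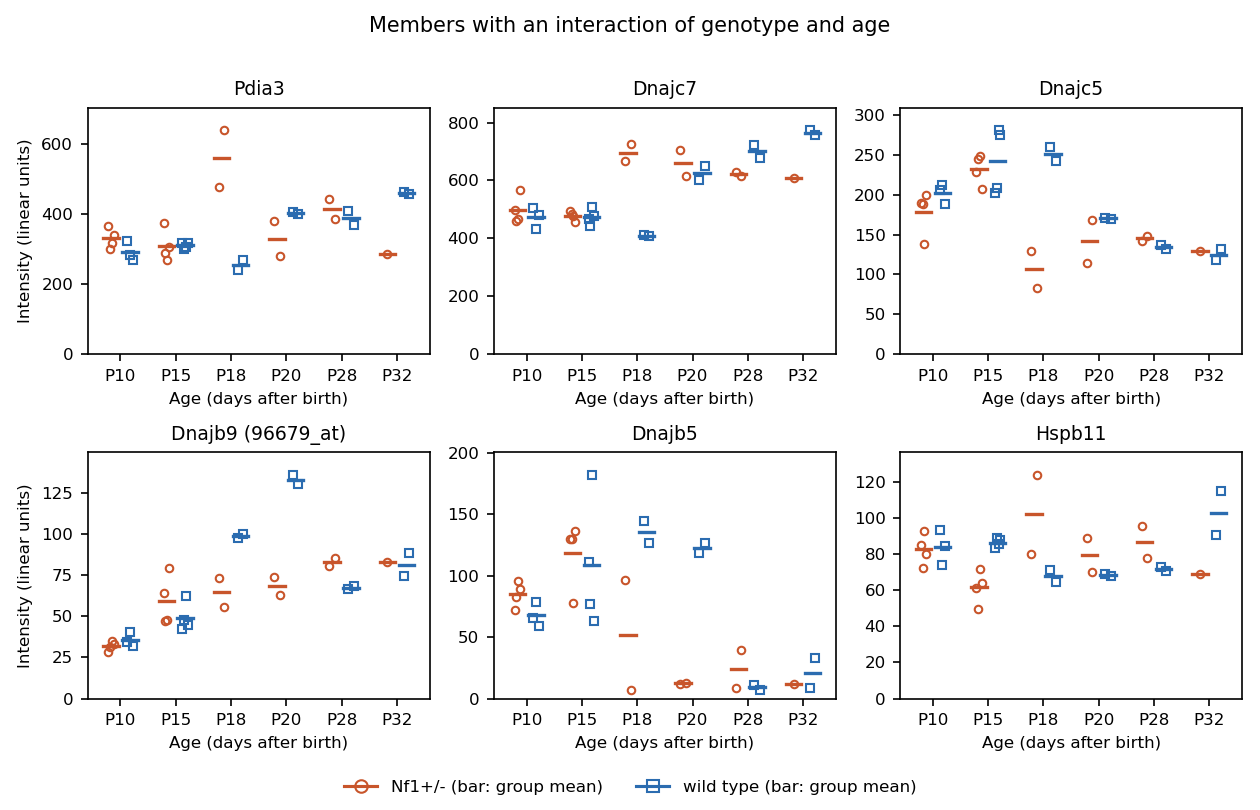
Intensity of the 6 members called for the interaction of genotype and age (y axes, linear units from 0) at each age, with Nf1+/- pools as circles, wild-type pools as squares and bars at the group means. At P18 Pdia3 and Dnajc7 were higher and Dnajc5 lower in Nf1+/-, and at P20 Dnajb5 and Dnajb9 were lower in Nf1+/-.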

How the data were processed

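The authors deposited linear intensity values of every probe set for each array. These were already scaled, since the trimmed mean of every array lay between 150.08 and 150.09, and their software was not given in the sources used here. Gene names came from the platform annotation, and coordinates, symbols and promoters from RefSeq (GRCm38.p6). For testing, the deposited intensity values were floored at 1 and turned to log2, with no further normalization. The 66 control probe sets were dropped, and so were the dimmest 40% of the rest (mean log2 below 4.95), leaving 7453. Linear models were fitted to all 30 samples with limma 3.58.1 in R 4.3.3, with an intensity trend, 1 mean per genotype and age, and two-sided tests. The genotype effect over all ages used age and genotype terms. P-values were adjusted with Benjamini-Hochberg over the 7453 probe sets, and calls were made at an adjusted p below 0.05. Genes were counted by their brightest probe set. Values in every group were given for up to 4 called genes per role with the largest change, for members called between genotypes (the 5 with the smallest p at P18), for the 3 largest changes per step, and for Hspa8, Hspa5, Hsp90aa1, Hspa1b, Hspd1, Tcp1, Canx and the metallothioneins. Further members were named for completeness after their values were seen. Members, lists and tests were chosen with earlier results of these data known. The models were tested on simulated data. Alternatives were an offset of 32 in place of the floor, quantile normalization, other filters, title codes or numbers as blocks, array weights, the Gapdh ratio as a covariate, the compared groups alone, title number 1 alone and leaving out each pool.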

Additional observations from a re-analysis of the deposited data

Results flagged for a closer look

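In 6 members the genotype difference changed with age by the interaction test of limma: Pdia3 (adjusted p = 0.0025), Dnajc7 (0.00693), Dnajc5 (0.0249), the dimmer Dnajb9 probe set (0.0403), Dnajb5 (0.0404) and Hspb11 (0.0407). Each is described in the report with its values, and the groups behind them hold 1 to 4 pools. Dnajb5 passed the intensity cut through the groups where it was high, so its call is only described. The same test called 6.49% of all tested probe sets, a share not given for the fits without single pools. The count of 6 members ranged from 2 to 18 when single pools were left out. In 3 of 96 combinations of a named probe set and a group of 4 pools, 1 pool stood far from the other 3 by Dixon's criterion, which chance exceeds in about 1 of 20 groups. Cct6b measured 23.9 in the Nf1+/- P15 pool 1c, Dnajb5 measured 78.04 in the Nf1+/- P15 pool 2c, and Dnajc5 measured 138 in the Nf1+/- P10 pool 2a, each the lowest of its group.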

How the results depend on the processing

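Among the members and comparisons recomputed under the alternatives, which leave out some members named only with a maturation change, no direction was reversed. Counts of called members that moved by more than 1.5 times were these. With the title code as a replicate block, 4 members were called for genotype at P15 (0 without the block), 3 at P18 (17), 0 at P20 (2), 2 for the interaction (6), 6 in the step P10 to P15 (18) and 0 in the step P15 to P18 (2). At P18 and P20 no code occurred in both genotypes, so block and genotype could be parted there only through pools of other ages. Pools sharing a code at an age correlated between -0.177 and 0.126, so the codes were not taken to pair them. The highest values joined P15 pools sharing only a letter, Nf1+/- 1c with wild-type 2c (0.259) and 1d with 2d (0.262). Other pairs sharing only a letter lay between -0.107 and 0.033. With title number 1 only, 23 members were called in maturation (38) and 6 in the step P10 to P15 (18). Without both Nf1+/- P18 pools, 6 were called in the step P20 to P28 (1). Leaving out each pool in turn gave 3 to 29 calls for genotype at P18, 0 to 3 at P20, 0 to 1 at P32, 2 to 18 for the interaction, 0 to 11 in the step P15 to P18, 0 to 1 in the step P18 to P20 and 0 to 6 in the step P20 to P28. It gave 31 to 42 calls in maturation and 14 to 21 in the step P10 to P15. Counts under the alternatives, here and above, stand without the matching share of all tested probe sets. They do not compare members with the table. The block on title codes took the maturation calls of Hsp90b1, Pdia3, Hspb8, Hspa9 and Tcp1 (adjusted p of 0.0622 to 0.319), and quantile normalization those of Cct3, Cct4, Cct6b, Hspa5 and Hspg2 (0.097 to 0.284). The Gapdh ratio as a covariate took the P18 calls of Hspa8, Dnajc2 and Dnajc5 (0.263, 0.404 and 0.0644). The causes were not tested. Dim probe sets near an intensity of 31, Dnajb5 late and Hspg2 among them, have the least certain changes, and 2 pools a group limit P18 and P20.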
